A study of Bos taurus with 43 samples.

Results

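The comparison described here sets the 4 animals positive for corticosteroid treatment (S21, S54, S56 and S57) against 13 Holstein control animals (C17, C18, C20 to C24, C41 and C44 to C48). These are 17 of the 43 animals measured. The labels of the positive animals give suspicion of a corticosteroid treatment as the status, and the study describes them as positive by thymus histology and by dexamethasone residues in the urine. It marks the residue of 1 of them, S56 here, as below the limit of quantification of its assay. The dose and the time of any treatment are not given in the sources used here. They were commercial beef cattle taken at the slaughterhouse, from a survey made up mostly of Charolais, Limousine and their crosses. The Holstein controls came from earlier controlled experiments as negative controls and were male as well, of an age range that overlapped that of the commercial animals but heavier. The 5 cross-breed controls (Charolais × Limousine) and the 4 animals of unknown status on the slides of the positive animals are given here only where they place the values of the positive animals. Each array held RNA of the biceps brachii, a muscle of the upper forelimb, from 1 animal.

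Dexamethasone is a synthetic glucocorticoid. It binds the glucocorticoid receptor, which moves to the nucleus and switches on genes such as FKBP5, PER1, KLF15 and GLUL. In skeletal muscle, prolonged exposure is known for the loss of fast, glycolytic fibres, through ubiquitin ligases such as TRIM63 and through FOXO transcription factors, while slow, oxidative fibres are spared. Fast and slow fibres use different versions of myosin, troponin, tropomyosin and the calcium pump. Muscles also keep a memory of where in the body they formed, in the HOX and T-box transcription factors they express.

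The groups also differed in how they were measured. The positive animals lay on 2 slides scanned on 1 day, and the Holstein controls on 7 other slides scanned on 4 other days, so that treatment, breed, slide and scan day cannot be told apart in this comparison. Of the Holstein controls, C41 and C44 to C46 were scanned on day 10, and only C17 and C18 on day 11. C20 to C23, C47 and C48 were scanned on day 12, and C24 on day 13. The scanner software called 74.95% of the spots well above background in S21, 77.59% in S54, 81.96% in S56 and 89.4% in S57. In the Holstein controls this share ran from 62.34% to 73.22%, below every positive animal, and in the cross-breed controls from 62.92% to 73.65%. Spike-in RNAs were added to every sample before labelling. After normalization, the mean log2 signal of the 7 brightest was 12.078 to 12.404 in the positive animals. It was 12.474 to 13.404 in the Holstein controls, above every positive animal, and 12.532 to 12.963 in the cross-breed controls. How this difference bears on the changes below was not tested. All of the probes that define skeletal muscle (ACTA1, CKM, DES, MB, TTN and others, 13 probes of 10 genes) were well above background on every array of both groups. TBX5, a forelimb factor, was well above background in 1 of 4 positive animals and 2 of 13 Holstein controls.

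Signals are given on a log2 scale after normalization over all arrays, so that a difference of 1 is a 2-fold change, and a positive difference means higher in the positive animals. A probe was called where limma gave an adjusted p under 0.05 and a change of at least 2-fold. Of the 16354 probes tested, 2911 (17.8%) were called, of which 1373 (8.4% of those tested) were higher and 1538 (9.4%) were lower in the positive animals. The share of higher calls, 47.2%, depended on the scaling. It was 83.3% of 3500 calls when each array was scaled to its 75th percentile, where the median change of all probes was 0.20, and 27.8% of 5776 calls with cyclic loess run over all pairs of arrays, where that median was -0.28. Quantile normalization gave 36.9% of 4014 calls, and a filter on signal well above background 73.6% of 3638 calls. In the main setting the median change was -0.05. Calls were most frequent among dim probes, at 38.3% of the dimmest of 4 equal groups by mean signal against 6.77% of the brightest. With normexp background correction 463 probes were called. For genes named as called, the number of the 6 other normalizations that gave the same call is stated where it was below 6.

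**Figure D1:**
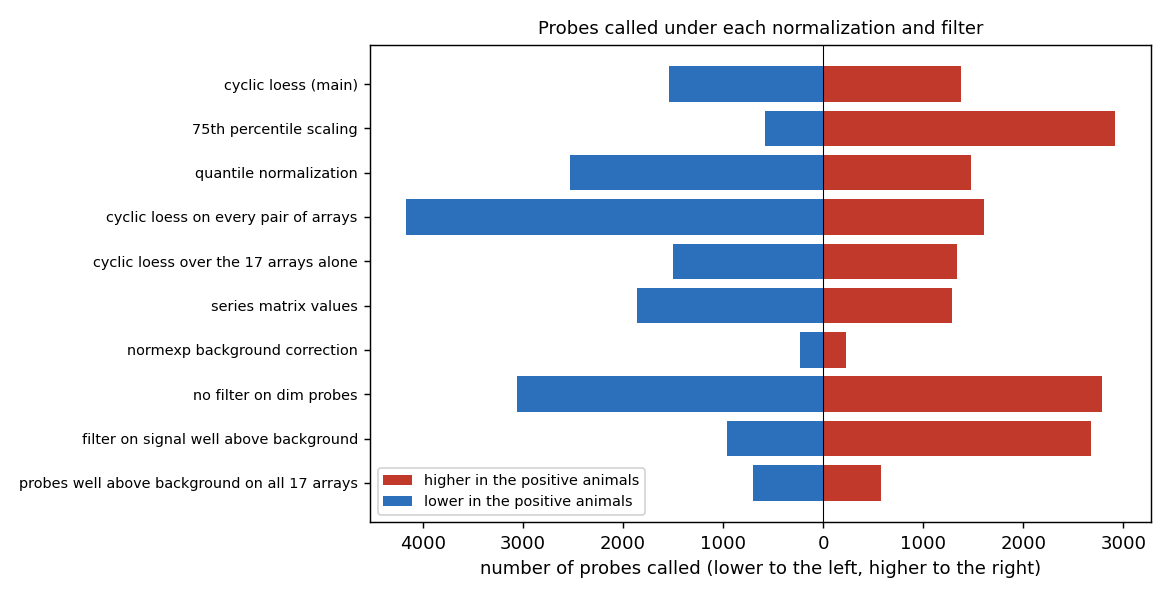
Number of probes called lower (left) and higher (right) in the 4 positive animals than in the 13 Holstein controls under each normalization or filter, 1 bar per setting. The main setting called 1538 lower and 1373 higher, the 75th percentile scaling called 584 lower and 2916 higher, and normexp background correction called 234 lower and 229 higher.

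Contractile genes of fast fibres were lower in the positive animals than any other list examined. Of the 16 probes tested, 10 were called lower (62.5% against 9.4% of all probes) and 1 higher, with a median change of -3.79 against -0.05 for all probes. MYBPC2, the fast form of myosin-binding protein C, had a signal of 13.47 in S21, 8.51 in S54, 10.64 in S56 and 11.13 in S57. The Holstein controls ranged from 17.53 to 18.07 around a median of 17.84. The change was -6.90 ± 0.50 (SE; limma adjusted p = 1.9e-08), with every positive animal below every Holstein control, S21 the highest of the positive animals and S54 the lowest.

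MYH1 encodes the myosin heavy chain of fast IIx fibres and was represented by 2 probes. At probe A_73_117636 the signal was 13.64 in S21, 7.53 in S54, 9.37 in S56 and 8.75 in S57, against 16.12 to 18.08 (median 17.87) in the Holstein controls. The change was -7.79 ± 0.69 (SE; adjusted p = 2.42e-07), and -5.88 ± 0.65 (adjusted p = 3.04e-06) at the other probe. Again S21 stood closest to the controls without reaching them. The skeletal myosin heavy chain genes are close copies of each other, so that a probe may also read a neighbouring gene. MYH4, the heavy chain of IIb fibres, went the other way, with 13.95 to 14.23 in the positive animals and 10.44 to 13.47 in the Holstein controls (change 1.84 ± 0.47, adjusted p = 0.00548). It was not called when all 43 arrays shared a fit (adjusted p = 0.156) or against the Holstein controls of scan day 10 alone (adjusted p = 0.0744).

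The thin filament and the calcium pump moved in the same direction as MYBPC2. TPM1, an alpha-tropomyosin, had a signal of 13.99 in S21, 10.55 in S54, 11.07 in S56 and 11.18 in S57, and of 17.44 to 17.95 (median 17.65) in the Holstein controls. Its change was -5.97 ± 0.38 (SE; adjusted p = 4.75e-09). ATP2A1, the calcium pump of the fast sarcoplasmic reticulum, reached 13.39 in S21, 10.08 in S54, 11.68 in S56 and 12.99 in S57, with 17.37 to 17.97 (median 17.69) in the controls and a change of -5.67 ± 0.37 (adjusted p = 7.43e-09). Groups did not overlap for either gene. TNNC2, the calcium-binding subunit of fast troponin, changed by -5.00 ± 0.38, MYL11, the fast regulatory light chain, by -4.16 ± 0.24, and ACTN3, the Z-disc actinin of fast fibres, by -3.42 ± 0.27. TNNT3, the fast troponin T, was called lower by a smaller margin (-1.25, adjusted p = 0.0419, same call under 4 of 6 normalizations), and its groups overlapped. MYL1 (-0.18, adjusted p = 0.18), MYOZ1 (-0.25, adjusted p = 0.0891), CASQ1 (-1.18, adjusted p = 0.0636) and SRL (-0.03 and 0.64 at its probes) were not called. MYBPC2, MYH1 at the probe A_73_102524, TPM1, ATP2A1, TNNC2 and MYL11 kept their call under each of the 34 alternatives run, including those without each animal in turn.

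Low MYBPC2 signals were also found in animals of unknown status. Among the animals of unknown status on the same slides, MYBPC2 was 10.18 in animal 79, 14.09 in animal 78, 14.94 in animal 50 and 15.77 in animal 81. All were below the lowest Holstein control, and animal 79 lay within the range of the positive animals. The array of animal 79 had 40.21% of its spots well above background, against 82.01% to 97.29% for animals 50, 78 and 81, and 1.26% of its spots were outliers. Animal 81 was not low throughout, since it lay within the Holstein range at the MYH1 probe A_73_102524 (17.42) and within the cross-breed range at TNNC2 (17.37). In the cross-breed controls MYBPC2 ran from 16.52 to 17.32, and the positive animals differed from them by -6.01 (adjusted p = 1.15e-04). PVALB, the calcium buffer parvalbumin, was different in this respect. The positive animals ranged from 6.64 to 7.20, against 9.86 to 12.48 in the Holstein controls and 5.23 to 7.62 in the cross-breed controls, with a change of -4.22 ± 0.48 (adjusted p = 4.28e-06) from the Holstein controls and 0.31 (adjusted p = 0.526) from the cross-breed controls. Holstein and cross-breed controls differed from each other by 4.53 (adjusted p = 8.46e-07).

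**Figure D2:**
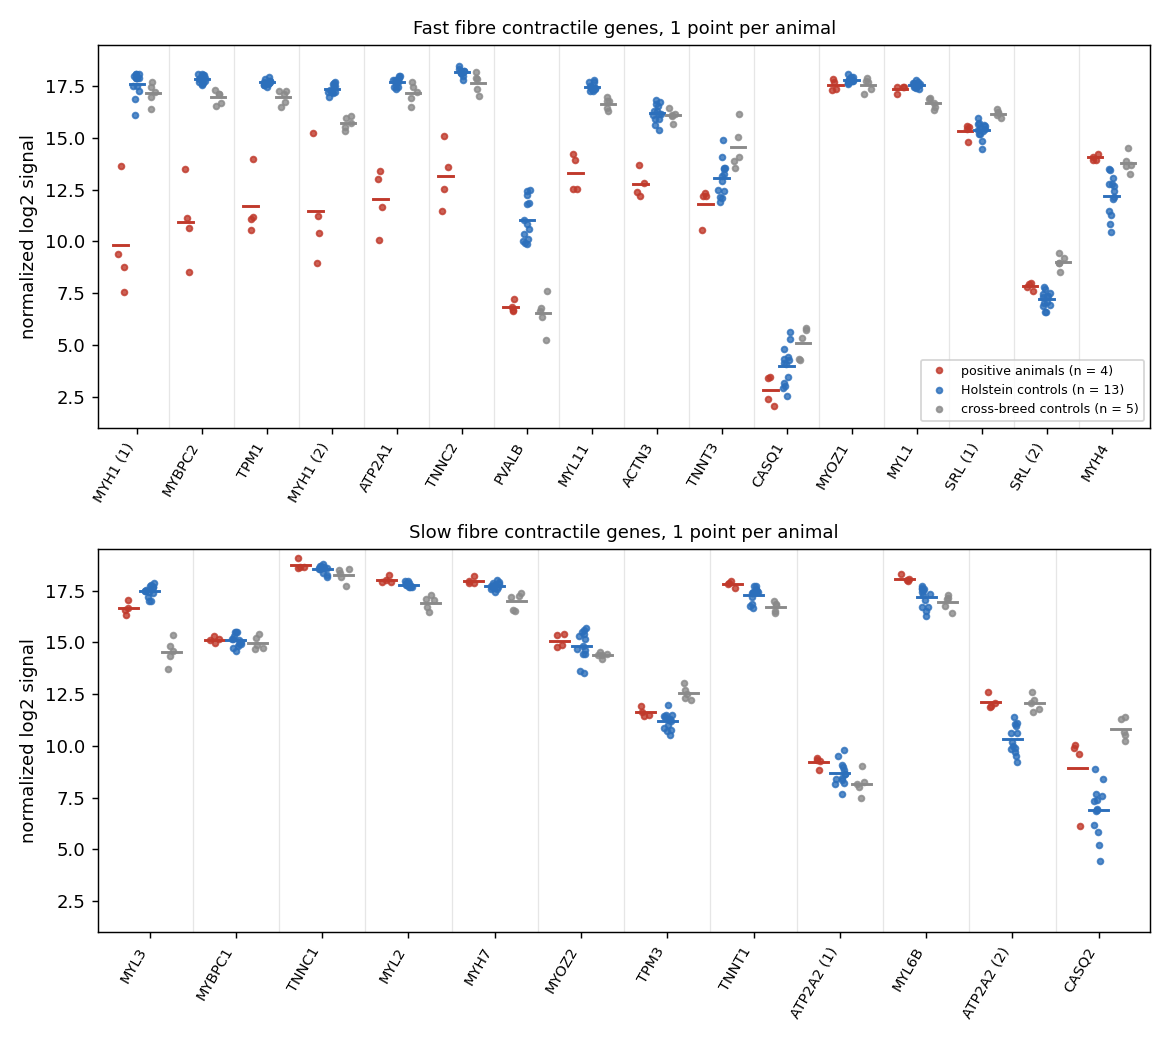
Normalized log2 signal (vertical axis) of each probe of the fast fibre list (upper panel) and the slow fibre list (lower panel), 1 point per animal and a bar at each group mean; levels of different probes are not comparable. At MYBPC2 the positive animals lie between 8.51 and 13.47 and the Holstein controls between 17.53 and 18.07, while at MYH7 the ranges are 17.84 to 18.21 and 17.44 to 17.99.

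Slow fibre genes did not fall. Of 12 probes tested, 2 were called higher (16.7% against 8.4% of all probes) and 0 lower (against 9.4%), with a median change of 0.34 that turned to -0.10 under cyclic loess over all pairs of arrays. MYH7, the slow myosin heavy chain, was 17.96 in S21, 17.84 in S54, 18.21 in S56 and 17.88 in S57, and 17.44 to 17.99 (median 17.74) in the Holstein controls, a difference of 0.25 ± 0.11 (adjusted p = 0.0835). MYL2 (0.23, adjusted p = 0.0714) and TNNC1 (0.20, adjusted p = 0.223) were not called either. ATP2A2, the slow calcium pump, was called higher at 1 of its 2 probes, with 11.87 in S21, 11.93 in S54, 12.06 in S56 and 12.59 in S57 against 9.20 to 11.40 (median 10.17; change 1.80 ± 0.35, adjusted p = 7e-04). Its other probe gave 0.53 (adjusted p = 0.162). CASQ2, the calsequestrin of slow and cardiac muscle, was 10.06, 9.62 and 9.87 in S54, S56 and S57 but 6.11 in S21, within the Holstein range of 4.45 to 8.87. The cross-breed controls, at 10.22 to 11.41, were above every positive animal (positive minus cross-breed -1.90, adjusted p = 0.0469) and above the Holstein controls (Holstein minus cross-breed -3.92, adjusted p = 1.49e-05). Its change of 2.02 ± 0.74 (adjusted p = 0.0398, 4 of 6 normalizations) was called under 19 of 34 alternatives. It was not called without S54 (adjusted p = 0.144), S56 (0.123), S57 (0.137), C18 (0.0541), C45 (0.0539) or C48 (0.0532) in turn, nor with slide (0.0532) or scan day (0.0823) as a random block, nor against any subset of the Holstein controls that was run (0.0704 to 0.174).

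Genes of glycogen metabolism and glycolysis, which feed the fast fibre, were mostly lower. Of 27 probes tested, 15 were called lower (55.6% against 9.4% of all probes) and 4 higher (14.8% against 8.4%), and the median change was -1.13. In every positive animal the list median lay between -1.21 and -0.89. PHKA1, the muscle regulatory subunit of phosphorylase kinase, was 11.89 in S21, 11.06 in S54, 11.91 in S56 and 11.64 in S57, below the Holstein range of 13.78 to 15.16 (median 14.43; change -2.72 ± 0.24, adjusted p = 1.84e-07). PKM, the last enzyme of glycolysis, changed by -2.10, and LDHA, the lactate dehydrogenase subunit of fast muscle, by -2.05. Smaller decreases were seen for GAPDH (-1.35, 5 of 6 normalizations, and -1.80 at 2 probes, and -0.79, not called, at the other), PGAM2 (-1.61), PGM1 (-1.25) and ENO3 (-1.32, same call under 5 of 6 normalizations). LDHB, the lactate dehydrogenase subunit of heart and slow muscle, rose by 1.36 ± 0.21 (adjusted p = 1.17e-04, 5 of 6 normalizations), with 16.86 to 17.10 in the positive animals above a Holstein range of 14.75 to 16.03. The other higher calls were in glycogen synthesis, with GBE1, the branching enzyme, at 1.49 and 2.32 (6 and 5 of 6 normalizations; 0.50 and -0.54 from the cross-breed controls, neither called), and PPP1R3C, a subunit that brings a phosphatase to glycogen, at 1.53 (adjusted p = 3.14e-05). PFKFB4, which makes an activator of glycolysis, was outside the list and among the largest decreases (-3.71 ± 0.34, adjusted p = 3.41e-07).

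Oxidative genes were called higher more often than lower, by smaller changes. Among 33 probes, 8 were called higher (24.2% against 8.4% of all probes) and 2 lower (6.06% against 9.4%), with a median of 0.52. Of the higher calls, 7 were among the 15 probes of fatty acid oxidation, where 8.4% of all probes were called higher. They included CPT2, which takes fatty acids into the mitochondrion (1.16, adjusted p = 1.51e-04, 5 of 6 normalizations), ACAA2 (1.02, adjusted p = 4.6e-05, 4 of 6) and ACADM (1.02, adjusted p = 0.00104, 4 of 6). ACAA2 and ACADM lay at the 2-fold threshold and fell below it without S54, without C18, C20 or C48, and against the Holstein controls of scan day 10 (0.94 and 0.91), and ACAA2 without S21, ACADM without S57 or C45. ACADM was also not called in a fit of all 43 arrays (adjusted p = 0.0937). CPT2 fell under 2-fold against the Holstein controls of scan day 10 as well (0.96). ACSS1, a mitochondrial acetyl-CoA synthetase outside the list, was 15.40 in S21, 15.67 in S54, 14.63 in S56 and 14.41 in S57 against 10.35 to 13.33 in the Holstein controls (2.99 ± 0.45, adjusted p = 7.06e-05). Of the 84 probes of the respiratory chain and ATP synthase, 2 were called, both higher, which is 2.38% against 8.4% of all probes, and the median was 0.24. UCP3, a mitochondrial carrier of fast muscle, was lower than in the Holstein controls by 3.92 ± 0.37 (adjusted p = 4.85e-07). It was 10.05 in S21, 8.61 in S54, 9.07 in S56 and 10.19 in S57, with 12.33 to 14.54 in the Holstein and 9.20 to 11.02 in the cross-breed controls.

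Genes of the glucocorticoid response, receptor genes included, were called lower more often than higher. Of 40 probes tested, 10 were lower (25% against 9.4% of all probes) and 3 were higher (7.5% against 8.4%), and the median change was -0.30. The 6 probes for the receptor and the activation of its ligand held 2 of the lower calls, FKBP5 and HSD11B1, and 0 of the higher, and the others were in genes that glucocorticoids induce. GLUL, the glutamine synthetase of muscle, was 10.73 in S21, 11.32 in S54, 10.48 in S56 and 9.90 in S57, and 12.63 to 13.79 (median 13.05) in the Holstein controls. Its change was -2.47 ± 0.22 (SE; adjusted p = 3.22e-07), with no overlap. FKBP5, the cochaperone that holds the receptor inactive, was 10.40 in S21, 10.56 in S54, 11.16 in S56 and 10.56 in S57, and 11.73 to 13.91 (median 12.92) in the Holstein controls, a change of -2.19 ± 0.28 (adjusted p = 1.21e-05).

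The cross-breed controls placed some of these genes differently. FKBP5 was 10.66 to 11.64 there, and the positive animals differed from them by -0.51 (adjusted p = 0.0976), while Holstein and cross-breed controls differed by 1.68 (adjusted p = 4.51e-05). For GLUL the positive animals were below both (change from the cross-breed controls -2.18, adjusted p = 1.32e-04). PDK4, which shuts pyruvate out of the mitochondrion, was lower than in the Holstein controls (-2.00 ± 0.28, adjusted p = 4.06e-05) and higher than in the cross-breed controls (1.19, adjusted p = 0.00918). KLF15, a transcription factor of amino acid breakdown, was 3.71 to 5.54 in the positive animals, below the Holstein controls at 5.59 to 8.60 and overlapping the cross-breed controls at 5.17 to 6.0 (change from the Holstein controls -2.25 ± 0.48, adjusted p = 0.00155, 5 of 6 normalizations, with changes from -3.91 to -0.58). DDIT4 (-1.86) and DDIT4L (-1.89), which restrain mTOR, were lower than in both control groups. KLF9 (-1.19) and PER1 (-1.09) were lower than in the Holstein controls, with the same call under 5 and 3 of 6 normalizations.

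Of the higher calls, TXNIP, a brake on glucose uptake, was above the Holstein range in all 4 positive animals (12.70 to 13.61 against 11.51 to 12.69; 1.12 ± 0.20, adjusted p = 4.41e-04) and slipped under 2-fold without S56 (0.99). ANGPTL4, an inhibitor of lipoprotein lipase, was 13.15 to 13.86 in the positive animals and 9.13 to 14.05 in the Holstein controls (2.16 ± 0.74, adjusted p = 0.0297), and its adjusted p ran from 0.0511 to 0.0782 without each positive animal in turn and was 0.0503 with scan day as a random block. ANGPTL4 was also not called against C41 to C48 (2.26, adjusted p = 0.0551) or against the controls of scan day 12 (1.39, adjusted p = 0.0753). The cross-breed controls, at 6.20 to 8.01, lay far below the positive animals (6.30, adjusted p = 1.83e-06) and below the Holstein controls (4.14, adjusted p = 9.66e-05). MT1A, a metallothionein, was called under 2 of 6 normalizations and lost its call without any 1 of the positive animals (adjusted p from 0.0618 to 0.0838) and with scan day as a random block (0.0742), and it was higher than in the cross-breed controls by 3.29 (adjusted p = 3.02e-05). The receptor itself, NR3C1, was 10.58 to 11.05 in the positive animals and 10.90 to 11.41 in the Holstein controls (-0.32, adjusted p = 0.04, under 2-fold). TSC22D3, a standard glucocorticoid-induced gene, changed by -0.89 (adjusted p = 0.0128) from the Holstein controls, under 2-fold, and by 1.74 (adjusted p = 6.25e-04) from the cross-breed controls, at 5.10 to 5.44 in the positive animals above 2.64 to 4.20. SGK1 (-0.01 and -0.15), CEBPD (-0.36 and 0.02) and MT2A (-0.02) were not called.

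**Figure D3:**
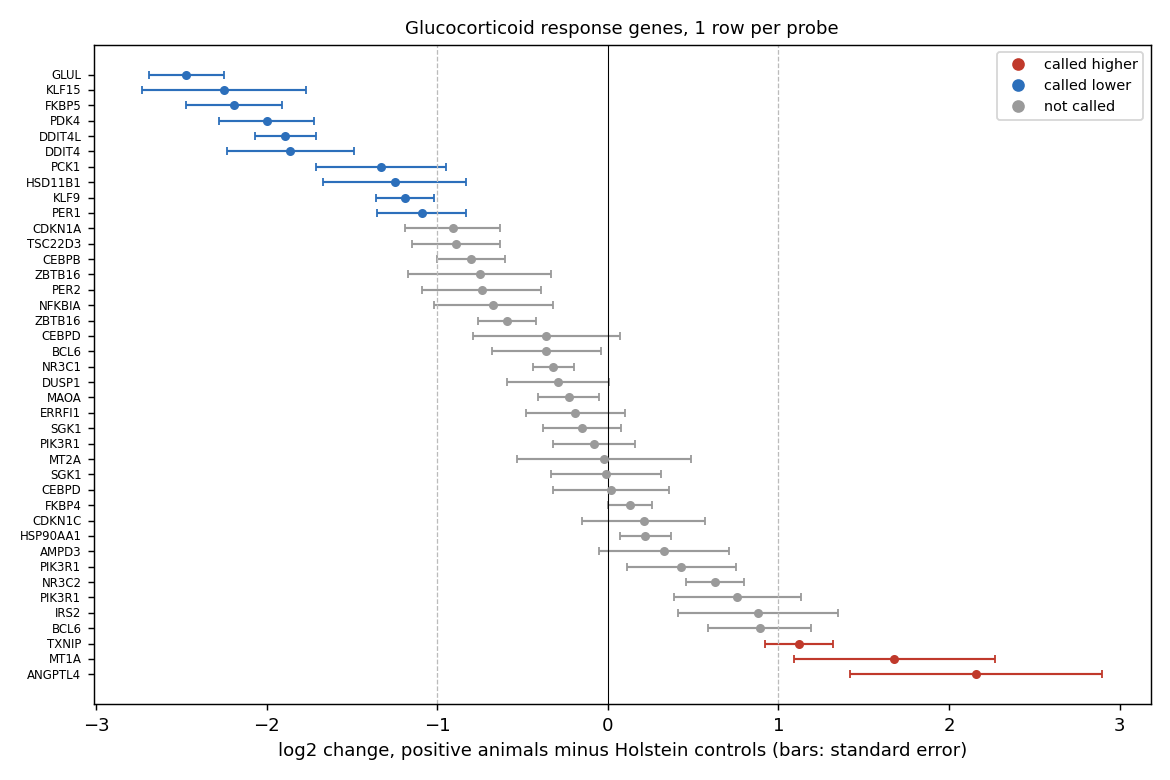
Log2 change between the 4 positive animals and the 13 Holstein controls (horizontal axis) for each of the 40 tested probes of the glucocorticoid response list, with standard errors and dashed lines at 2-fold. The 10 probes called lower run from GLUL at -2.47 to PER1 at -1.09, and the 3 called higher from TXNIP at 1.12 to ANGPTL4 at 2.16.

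Genes of muscle wasting were not higher as a group. Of 33 probes, 1 was called higher (3.03% against 8.4% of all probes) and 4 lower (12.1% against 9.4%), so that the share of lower calls was near that of all probes, with a median of -0.17 that turned to 0.10 under cyclic loess over all pairs of arrays. TRIM63, the ubiquitin ligase MuRF1, was 13.51 in S21, 14.04 in S54, 13.70 in S56 and 13.38 in S57, below the Holstein range of 14.64 to 16.50 (median 15.52; change -2.06 ± 0.33, adjusted p = 1.34e-04). FBXO32, the ligase atrogin-1, differed by 0.36 (adjusted p = 0.211). FOXO1 was 6.0 in S21, 6.18 in S54, 6.19 in S56 and 6.61 in S57, and 9.47 to 11.07 (median 10.16) in the Holstein controls, with a change of -3.93 ± 0.26 (adjusted p = 8.7e-09) that ran from -4.37 to -2.41 over the 6 normalizations. The cross-breed controls, at 6.16 to 6.63, overlapped the positive animals (-0.16, adjusted p = 0.444), while the Holstein controls were above the cross-breed controls by 3.76 (adjusted p = 1.46e-09). MSTN, the growth inhibitor myostatin, ranged from 5.05 to 5.54 among the positive animals, against 2.45 to 5.11 in the Holstein controls and 6.77 to 8.55 in the cross-breed controls. Its change of 1.70 from the Holstein controls (adjusted p = 0.019) is uncertain in size, since it was well above background in 5 of 13 Holstein controls, and ran from 0.12 to 2.99 over the 6 normalizations. It was called under 4 of them and lost without S56 (adjusted p = 0.0582), in a fit of all 43 arrays (0.102), and against C41 to C48 (0.0601) or the controls of scan day 11 (0.0821) or 12 (0.0576).

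Position genes formed another block. Of 50 probes tested for HOX, T-box and other patterning factors, 14 were lower (28% against 9.4% of all probes) and 13 higher (26% against 8.4%). HOXA genes of the 5' end of the cluster, which mark the more distal limb in the embryo, were lower. HOXA10 was 4.56 in S21, 3.71 in S54, 3.82 in S56 and 4.97 in S57 against 10.13 to 11.17 (median 10.70) in the Holstein controls, a difference of -6.39 ± 0.23 (adjusted p = 3.87e-12), and it was well above background in 2 of the 4 positive animals. HOXA11 was well above background in all 13 Holstein controls and in 0 positive animals, and was at least 25.8-fold lower in the latter (adjusted p = 9.41e-09). That limit compares the control mean with the lowest level at which each positive array measured a probe, or with the signal of the probe itself where this was higher. It was computed for the main normalization only, and the fitted change of HOXA11 ran from -6.91 to -1.22 over the 6 others, smallest with normexp. HOXA13 (-5.25, measured in 1 of 4 positive animals), HOXC10 (-3.12, measured in 2 of 4) and the probes of HOXA9 (-7.96, -7.42, -3.51 and -1.22, in 1, 1, 2 and 4 of 4) were lower as well, all without overlap. Where a positive animal was at background its signal is only an upper bound, so the sizes are uncertain, and over the 6 normalizations they ran from -8.79 to -3.38 for the HOXA9 probe at -7.96, from -7.65 to -3.05 for HOXA10 and from -7.10 to -0.91 for HOXA13. The same call was given by 5 of 6 normalizations for HOXA13, HOXC10 and the HOXA9 probe at -3.51, and by 3 of 6 for the HOXA9 probe at -1.22.

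HOXC6, HOXC8, HOXA4, MEIS2 and TBX3 were higher. HOXC6 was 10.34 in S21, 10.22 in S54, 10.22 in S56 and 10.49 in S57, against 4.10 to 5.89 (median 5.16; change 5.11 ± 0.23, adjusted p = 7.08e-11). MEIS2, a HOX cofactor of the proximal limb, was 9.42 in S21, 10.49 in S54, 10.59 in S56 and 10.33 in S57, against 3.78 to 5.97 (median 4.97; change 5.33 ± 0.37, adjusted p = 1.45e-08). TBX3 was 8.01 to 8.12 in the positive animals and 3.71 to 6.04 in the Holstein controls (2.83 ± 0.32, adjusted p = 3.43e-06). HOXC8 changed by 5.30 ± 0.43 (adjusted p = 7.85e-08) at the probe measured in 8 of 13 Holstein controls, and HOXA4 by 1.62 ± 0.20 (adjusted p = 9.81e-06). The size for HOXC8 is uncertain, since the signal of a Holstein control at background is only an upper bound. Over the 6 normalizations the change ran from 2.93 to 5.21 for HOXC6, from 3.02 to 5.48 for MEIS2, from 2.32 to 5.52 for HOXC8 and from 1.22 to 3.42 for TBX3. No value of the positive animals overlapped the Holstein controls for these genes.

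At HOXC6 and HOXA10 the animals of unknown status on the same slides lay nearer to the positive animals than to either control group. HOXC6 was 9.77 in animal 50, 9.73 in animal 78, 10.36 in animal 79 and 10.05 in animal 81, and HOXA10 was 5.96, 4.19, 5.70 and 4.10 in the same order. Animals 50, 78 and 81 were below the positive range for HOXC6, and animals 50 and 79 were above that for HOXA10. Animal 79, whose array measured the smallest share of spots on these slides, was also nearer to the Holstein controls than to the positive animals at HOXA11 (5.19) and at the HOXA9 probe A_73_120553 (5.05). The cross-breed controls had HOXC6 at 3.18 to 4.77 and HOXA10 at 10.28 to 11.13 in the cross-breed controls. The forelimb factor TBX5 could not be tested, and the hindlimb factors TBX4 (-0.09, adjusted p = 0.801) and PITX1 (0.76, adjusted p = 0.0272) were not called.

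**Figure D4:**
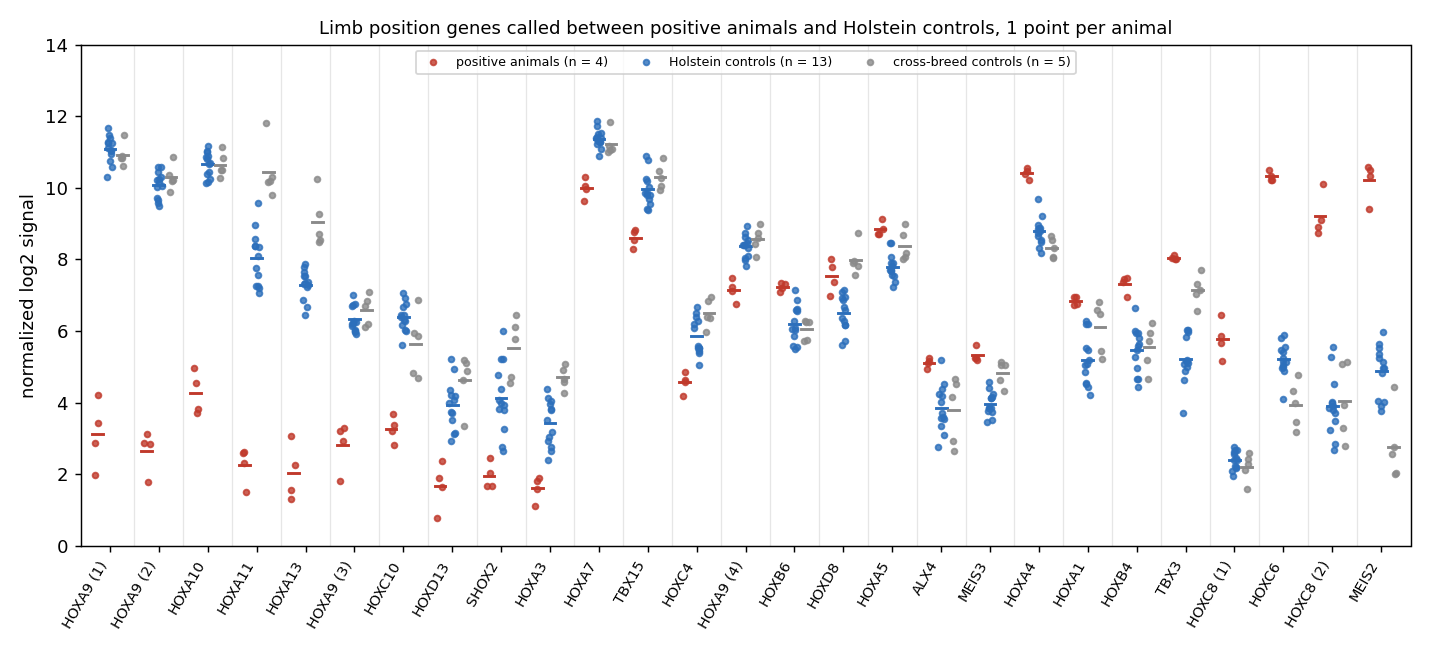
Normalized log2 signal (vertical axis) of the 27 limb position probes called between the 4 positive animals and the 13 Holstein controls, 1 point per animal with a bar at each group mean; numbers in brackets separate probes of 1 gene. At HOXA10 the positive animals lie between 3.71 and 4.97 and the Holstein controls between 10.13 and 11.17, and at HOXC6 between 10.22 and 10.49 and between 4.10 and 5.89.

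Collagens and other matrix genes were called lower more often than higher. Of 37 probes tested, 18 were called lower (48.6% against 9.4% of all probes), 0 higher and 19 not called, with a median of -0.92. COL1A1, a chain of the main fibrillar collagen, was 10.81 in S21, 10.64 in S54, 10.32 in S56 and 8.92 in S57, against 12.43 to 14.46 (median 13.68; change -3.27 ± 0.38, adjusted p = 5.55e-06). COL3A1 (-3.28 ± 0.41) and COL1A2 (-2.89 ± 0.29) followed, and FN1, fibronectin, changed by -2.46. S57 was the lowest of the positive animals for each of the 3 collagen genes. COL23A1, a collagen outside the list, went the other way, with 9.76 to 10.04 in the positive animals and 5.94 to 8.84 in the Holstein controls (change 2.75 ± 0.38, adjusted p = 3.23e-05). The matrix protein SPARC fell by 1.41, and LOX, which crosslinks collagen, by 1.90, both outside the Holstein range. For LOX and LUM the positive animals overlapped the cross-breed controls (0.59 and 0.54, adjusted p = 0.29 and 0.55). Of 4 tendon and cartilage probes tested, 2 were called lower, TNMD and FMOD, where 9.4% of all probes were. COMP (-2.27, adjusted p = 0.123) and THBS4 (0.32, adjusted p = 0.612) were not called. FMOD (-1.72) overlapped the Holstein range and was not called against the controls of scan day 11 (-1.71, adjusted p = 0.0645). TNMD, tenomodulin, was well above background in 13 Holstein controls and in 0 positive animals, at least 29.5-fold lower (adjusted p = 1.5e-04, 5 of 6 normalizations). Over the 6 tendon and cartilage probes the median difference from the Holstein mean was -2.39 to -1.79 in the positive animals. It was -1.18 to 2.46 in single Holstein controls and -2.26 to 0.16 in the cross-breed controls, which reached into the positive range. The log2 of the summed signal of these probes, led by THBS4, was 12.13 to 13.87 in the positive animals, within the Holstein range of 11.83 to 15.35. SCX was at background on all 17 arrays. How much tendon or connective tissue contributed to the matrix result was not tested, and in whole muscle fewer cells of a type and less RNA per cell cannot be told apart.

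Some endothelial markers of blood vessels were higher. Of 8 endothelial probes, 4 were called higher, where 8.4% of all probes were, and 0 lower, with a median of 1.01. VWF, the von Willebrand factor, was 11.94 in S21, 11.39 in S54, 12.63 in S56 and 11.92 in S57, against 8.06 to 10.55 (median 9.70; change 2.37 ± 0.40, adjusted p = 2.02e-04). ESAM (1.49), KDR (1.54, 5 of 6 normalizations) and EMCN (1.07, 3 of 6) were called too, while PECAM1 differed by 0.09 (adjusted p = 0.795) and CDH5 by 0.95 (adjusted p = 0.00716), under 2-fold. The log2 of the summed endothelial signal ranged from 13.23 to 14.04 among the positive animals, against 11.59 to 12.84 in the Holstein controls and 11.87 to 12.84 in the cross-breed controls. Of 6 smooth muscle probes, 2 were called higher, beside 8.4% of all probes, and 0 lower. Their median was 0.30, with 0 in S21, -0.17 in S54, 0.74 in S56 and 0.60 in S57. Of 25 leukocyte probes, 1 was called higher (4% against 8.4% of all probes) and 4 lower (16% against 9.4%). Their median of -0.33 was 0.26 against the Holstein controls of scan day 10 and -1.48 against those of scan day 11. CD163, a macrophage receptor, changed by -2.26 (adjusted p = 0.00131; 0.0548 against scan day 10), and PTPRC, the pan-leukocyte antigen CD45, by -0.33 (adjusted p = 0.58). The higher call was the lymphocyte marker CD3D (2.66, adjusted p = 0.0116, 3 of 6 normalizations, with changes from 0.41 to 4.14). Its groups overlapped, and it was well above background in 4 of 13 Holstein controls. CD3D was not called against C17 to C24 (adjusted p = 0.0823) or the controls of scan day 11 (0.575). The summed leukocyte signal of the positive animals, 12.81 to 13.12 on the log2 scale and led by LAPTM5, lay within the Holstein range of 12.07 to 14.85. Adipocyte and lipid storage genes had a median of 0 over 30 probes. Of these, 3 were higher (10% against 8.4% of all probes), among them CIDEA (1.96, adjusted p = 0.00193), and 1 lower (3.33% against 9.4%). The summed signal of the 10 adipocyte marker probes, led by CEBPA, was 13.95 to 14.29 in the positive animals. It was 14.17 to 14.92 (median 14.67) in the Holstein controls, while the median difference of these probes ran from -0.17 to 0.54 in the positive animals. The part of these cell types in the other results was not tested.

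**Figure D5:**
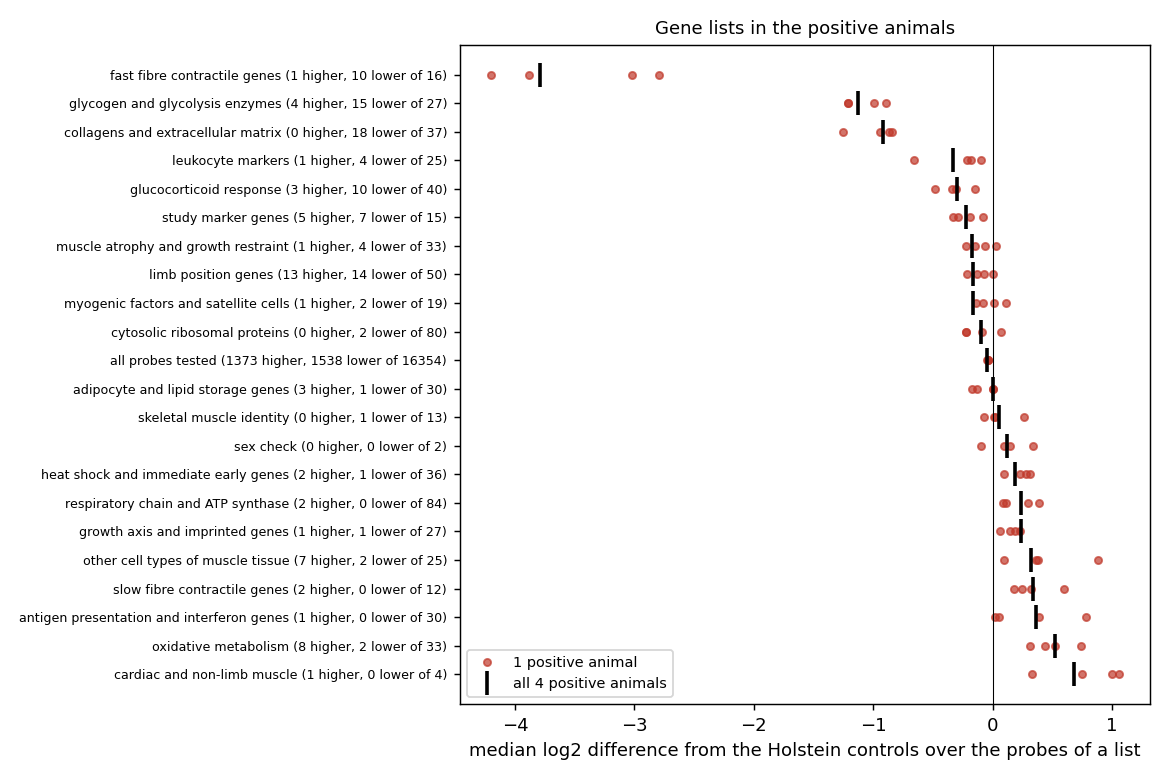
Median log2 difference from the Holstein controls over the probes of each gene list (horizontal axis), with 1 point for each of the 4 positive animals, a bar for the group, and the number of probes called of those tested beside each name. Fast fibre genes (-3.79), glycogen and glycolysis enzymes (-1.13) and the matrix (-0.92) lie lowest, and all 16354 probes together lie at -0.05.

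Outside the lists, the largest measured increases were those of FABP7 and SLC16A7. FABP7, a fatty acid binding protein best known from glia, was 10.17 in S21, 13.44 in S54, 10.31 in S56 and 10.93 in S57, against 4.37 to 7.61 (median 5.61; change 5.49 ± 0.59, adjusted p = 2.4e-06), with S54 well above the other positive animals. SLC16A7, the monocarboxylate transporter MCT2, was 10.71 in S21, 11.16 in S54, 11.05 in S56 and 11.09 in S57, against 2.95 to 7.49 (median 6.14; change 5.19 ± 0.66, adjusted p = 1.28e-05). The positive animals were clear of the Holstein range for both, and over the 6 normalizations the changes ran from 3.73 to 5.55 and from 3.32 to 5.27. HS3ST2, a heparan sulphate sulphotransferase (4.23), CPE, which trims peptide hormones (3.81), RBFOX3, a splicing factor (3.64), NDRG4 (3.48), SH3KBP1 (3.46) and GRB14, an adaptor that inhibits the insulin receptor (3.39), followed. Their lowest changes over the normalizations were 2.66 for HS3ST2, 2.66 for CPE, 2.36 for RBFOX3, 2.96 for NDRG4, 2.95 for SH3KBP1 and 1.97 for GRB14. All 8 were also called higher than in the cross-breed controls, which share the positive animals with the Holstein comparison, at 2.38 for CPE, 2.48 for SLC16A7 and 3.35 to 4.6 for the others.

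Among measured decreases outside the fibre lists, SLN, sarcolipin, which inhibits the calcium pump, was 12.92 in S21, 12.71 in S54, 11.75 in S56 and 13.23 in S57, against 16.24 to 17.35 (median 16.72; change -4.08 ± 0.22, adjusted p = 5.77e-10). INHA, the inhibin alpha subunit, changed by -3.75 ± 0.22 (adjusted p = 2.03e-09). Neither gene overlapped between the groups. ASCC1, a subunit of a transcriptional coactivator complex, changed by -4.12 from the Holstein controls and by -0.48 (adjusted p = 0.281) from the cross-breed controls, since the controls differed by 3.65. HDGFL1 changed by -4.35 (adjusted p = 0.0174, 5 of 6 normalizations, with changes from -5.61 to -2.20; 0.0532 against the controls of scan day 10), from Holstein signals spread between 5.41 and 13.67. NEB, the giant thin filament protein nebulin, was called at 1 of its 3 probes (-4.92, adjusted p = 5.03e-08, from -5.77 to -2.91 over the normalizations), and its other probes gave -0.98 (adjusted p = 0.177) and 0.18 (adjusted p = 0.764), so the probes disagreed.

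Some genes were measured in a single group. Well above background in all 4 positive animals and in 0 Holstein controls were PZP, a protease inhibitor of plasma (at least 7.0-fold higher), ASIP, the agouti signal that sets coat colour (6.64-fold), SYNE3, a nuclear envelope protein (6.51-fold, 4 of 6 normalizations), ADCYAP1, a neuropeptide (5.90-fold, 5 of 6), and STING1, a sensor of cytosolic DNA signals (5.74-fold, 5 of 6), where each further fold is likewise a lower limit. In the opposite direction, besides TNMD and HOXA11, the limits were at least 21.7-fold lower for the kinase PAK6, 16.7-fold for ATP2B2, a calcium pump of the plasma membrane, and 15.4-fold for GPNMB, a membrane glycoprotein (5 of 6). These limits were likewise computed for the main normalization only, and with normexp the fitted change was 1.09 for PZP and -1.26 for PAK6. It was under 2-fold with normexp for SYNE3 (0.97), ADCYAP1 (0.89), STING1 (0.85) and GPNMB (-0.88), and SYNE3 was 0.66 with cyclic loess over all pairs of arrays. The smallest changes over the 6 normalizations were 1.11 for ASIP and -1.12 for ATP2B2. In all, 79 called probes allowed such a limit upward and 11 downward, beside the larger share of spots measured on the arrays of the positive animals.

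The marker genes are those by which the study sorted animals and those it measured by quantitative PCR. The study had reported both from data that included the positive animals, so their direction is no independent evidence. Of 15 probes, 5 were called higher (33.3% against 8.4% of all probes) and 7 lower (46.7% against 9.4%). AMPD1, the AMP deaminase of fast muscle, was 12.36 in S21, 12.45 in S54, 12.18 in S56 and 12.32 in S57, against 14.13 to 14.74 (median 14.41; change -2.16 ± 0.12, adjusted p = 1.25e-09). ANKRD35 (1.87), S100B, a calcium-binding protein (1.86), the mitochondrial deacetylase SIRT3 (1.47), NAT14 (1.13) and BLVRB (1.11) were higher. MEN1, another gene that the study measured by quantitative PCR, was not called. None of the 13 probes of the 10 genes measured by quantitative PCR overlapped between the groups. Of these probes, 6 lay above the Holstein range, beside 8.43% of all probes, and 7 below it, beside 7.97%. The lower ones included all the HOXA9 probes given above, so that they stand for fewer genes than probes. The pair of genes the study used to sort animals, chosen against the cross-breed controls, was not called here. IPO9, an importer of proteins into the nucleus, was -0.22 (adjusted p = 0.291) from the Holstein controls and 3.63 (adjusted p = 7.1e-06) from the cross-breed controls. PCCB, a subunit of propionyl-CoA carboxylase, was higher by 0.75 (adjusted p = 0.00137) and 1.08 (adjusted p = 5.01e-05).

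Set side by side, the positive animals differed from the cross-breed controls at 4597 probes (28.1%; 14.4% of all probes higher and 13.8% lower), and the Holstein controls from the cross-breed controls at 3361 (20.6%; 10.9% higher and 9.69% lower). The positive animals lay entirely outside the Holstein range at 2682 probes (16.4%), above it at 1378 (8.43%) and below it at 1304 (7.97%). They lay outside the range of both control groups at 1635 probes (10%), above all 18 controls at 893 (5.46%) and below at 742 (4.54%). Both comparisons share the positive animals. Most genes described above as called against the Holstein controls, among them MYBPC2, TPM1, ATP2A1, GLUL, ANGPTL4, MT1A, TRIM63, HOXA10, HOXC6, COL1A1, VWF and AMPD1, were called in the same direction against the cross-breed controls, with the following exceptions. PDK4, MSTN and CASQ2 were called in the opposite direction. PVALB, FOXO1, UCP3, ASCC1, FKBP5, KLF15, HSD11B1, LOX, LUM, CD163, MYH4, TXNIP, TBX3, the GBE1 probe A_73_103263 and the ATP2A2 probe A_73_107013 were not called against the cross-breed controls, and each was called between the control groups. PGAM2 (-0.96 from the cross-breed controls), PGM1 (-0.63), ENO3 (-0.82), CPT2 (0.80), ACADM (0.84), KLF9 (-0.87), PER1 (-0.11), PPP1R3C (0.62), FMOD (-0.55) and the GBE1 probe A_73_107208 (0.50) were called in neither of these comparisons.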

How the data were processed

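RNA of 43 biceps brachii samples was hybridised to 1-colour Agilent bovine arrays, and the authors deposited scanner files whose processed intensity is background-subtracted by the Agilent software. These intensities were taken to log2, and fast cyclic loess in limma was run over all 43 arrays. Outlier spots were left out and spots of a probe were averaged, which gave 21475 probes. Probes under a log2 signal of 4 on 30 or more of the 43 arrays were left out (5121), and 16354 were tested. The deposited value table of the authors, normalized between arrays by cyclic loess according to the methods, served as an alternative. Its columns were intensities on a linear scale, with medians of 86.8 to 301.5, and their log2 values correlated with the scanner values of the same array in the same direction (r across spots of 0.956 or more); the table left some spots empty.

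The 4 positive animals and 13 Holstein controls were compared with limma 3.58.1 in R 4.3.3 (lmFit and eBayes, Benjamini-Hochberg adjustment over all tested probes, two-sided). A probe was called at an adjusted p under 0.05 and at least 2-fold. Groups came from the labels and the breeds of the controls from the study's text. Each array was 1 animal, and the number of arrays limits the precision. The fit was tested on simulated data.

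The members and the gene lists were chosen with earlier results of these data known. Genes were named by a rule, namely the 15 largest measured changes in each direction without overlap, 5 lower limits in each direction, up to 4 called members of each list in each direction by adjusted p, and the members of the glucocorticoid, fast fibre, slow fibre, limb position and marker lists. Only part of these is described, and further members of the other lists were named after their values were seen. Probe names came from the files and from RefSeq tables (assembly ARS-UCD2.0, names only): 17115 of 21475 probes had a symbol, 1549 a locus name only and 2536 none, and for 273 the names disagreed. Alternatives were other normalizations, filters, fits and subsets of the controls. Probe sequences were not used here.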

Additional observations from a re-analysis of the deposited data

Results flagged for a closer look

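In 3 of 110 named probes, 1 of the 4 positive animals stood far from the other positive animals by Dixon's test at the 95% level, a test that flags about 5% of such groups by chance. CASQ2, the slow calsequestrin, was 6.11 in S21, with the nearest other positive animal at 9.62. GBE1, the glycogen branching enzyme, was 6.17 in S21 at the probe A_73_103263, with the nearest at 7.20. ENO3, the muscle enolase, was 15.80 in S54, with the nearest at 16.25.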

How the results depend on the processing

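No paired analysis was possible because the labels give the groups no shared replicate numbers, and the groups lay on different slides. Cyclic loess over the 17 arrays alone gave no count of probes outside both control groups, since it held no cross-breed controls. Without each animal in turn, 2581 to 2987 probes were called and 46.4% to 49.8% of the calls were higher. The count was 5776 with cyclic loess over all pairs of arrays, 463 with normexp and 5843 without a filter. The share of higher calls was 83.3% with 75th percentile scaling, 36.9% with quantile normalization, 27.8% with every pair, 40.8% with the deposited table, 49.5% with normexp, 73.6% with the filter on signal well above background and 51.3% against the controls of scan day 11. On the 12438 probes well above background on all 17 arrays, a restriction chosen after seeing the data, 1277 probes were called and 44.9% were higher. There, 75th percentile scaling gave 1433 and 70.1%, quantile normalization 1826 and 35.1%, every pair 3269 and 44.3%, the values of the authors gave 1457 and 35.7%, and normexp 424 calls. The positive animals lay outside both control groups at 3558 probes with every pair, 572 with normexp and 4093 without a filter.

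Median changes of the lists moved as follows. With every pair, they were 0.10 for atrophy, -0.10 for slow fibres, -0.04 for the growth axis and 0.01 for myogenic factors, each of the opposite sign to the main value, and -0.30 for ribosomal proteins, -0.57 for limb position, -0.35 for adipocytes, 0.96 for the sex check and -0.61 for muscle identity. With normexp they were 0.61 for slow fibres, -3.03 for fast fibres, -0.93 for glycolysis, 0.13 for ribosomal proteins, 0.07 for the growth axis and 0.01 for the study's markers. With 75th percentile scaling they were 0.78 for oxidative genes, 0.38 for limb position, 0.53 for the growth axis, 0.09 for myogenic factors, 0.74 for other cell types and 0.69 for the sex check. With quantile normalization they were -3.42 for fast fibres, -0.34 for limb position and -0.02 for the study's markers. With the filter on signal well above background they were -4.16 for fast fibres, 0.08 for limb position and 1.39 for cardiac genes, and without a filter 0.05 for myogenic factors and 1.30 for cardiac genes. Against the controls of scan day 11 they were -0.62 for glucocorticoid genes, 0.72 for oxidative genes, 0.10 for limb position, -1.48 for leukocytes, 0.08 for myogenic factors and 0.84 for other cell types. Scan day 10 gave 0.26 for leukocytes, 0.10 for the growth axis and -0.47 for the study's markers, and scan day 12 gave -0.34 for adipocytes and -0.04 for the markers. Controls C17 to C24 gave 0.02 for limb position and -0.07 for the markers, and C41 to C48 gave -0.40 for the markers. MEGF10 turned to 0.36 (adjusted p = 0.362) with every pair. For the 110 named probes, 3549 of the values under the alternatives kept their direction and their side of the threshold, 187 lost the call and 1 reversed. The causes were not tested.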

Other observations

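The counts of the remaining lists are to be read beside the 8.4% of all probes called higher and the 9.4% called lower. Of 36 probes of heat shock and immediate early genes, 2 were higher and 1 lower (median 0.19), with HSPA1A higher by 1.55 (limma adjusted p = 0.00879) at 1 probe and 0.90 (adjusted p = 0.0355, under 2-fold) at another, and ATF3, a stress-induced transcription factor, changed by -1.65 (adjusted p = 0.00781). The groups overlapped for ATF3, and it was not called without S21 (adjusted p = 0.0551) or against C17 to C24 (0.0626) or the controls of scan day 11 (0.417). Among 30 antigen presentation and interferon probes, 1 was higher (median 0.36), GBP4, an interferon-induced GTPase, at 1.65 (adjusted p = 0.03, 5 of 6 normalizations). GBP4 was not called without S54 (0.87, adjusted p = 0.194) or S21 (0.061), with scan day as a random block (0.0637), in a fit of all 43 arrays (0.135), or against C17 to C24 or the controls of scan day 10, 11 or 12. The interferon response genes of the list stood apart in S54, with a median difference of 3.10 over the tested probes against 0.55 in S21, -0.05 in S56 and 0.20 in S57, and a log2 summed signal of 14.67 against 11.75 to 12.04. The growth axis held 1 higher and 1 lower call of 27 probes (median 0.24), IGFBP3 at 1.45 and IGFBP6 at -1.02 (same call under 1 of 6 normalizations and 20 of 34 alternatives, and lost without S57, C18, C21, C22, C23 or C48), both carriers of insulin-like growth factors. Myogenic factors and satellite cell genes had 1 higher and 2 lower calls of 19 (median -0.16). MYOG, myogenin, was higher by 1.40 (adjusted p = 0.0158) and was not called without S56 (1.04, adjusted p = 0.0924) or against C17 to C24 (0.0829) or the controls of scan day 12 (0.0502), and MEGF10 (-1.54) and SDC4 (-1.24) were lower, each under 4 of 6 normalizations. SDC4 was not called without S21 (adjusted p = 0.0803), S54 (0.0517) or S57 (0.0958), with scan day as a random block (0.0617), or against C17 to C24 (0.0645) or the controls of scan day 12 (0.0945).

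Cytosolic ribosomal protein genes had 2 lower calls of 80 probes (median -0.10), RPS27A at -1.20 (4 of 6 normalizations, and adjusted p = 0.104 in a fit of all 43 arrays) and RPS27L at -1.09 (5 of 6). The skeletal muscle identity list had 1 lower call of 13 (median 0.05), the cardiac and non-limb muscle list 1 higher call of 4 (median 0.68), and the list of other cell types, the endothelial and tendon markers included, 7 higher (28%) and 2 lower (8%) calls of 25 (median 0.32), while neither of the 2 probes of the sex check was called (median 0.12, adjusted p = 0.432 and 0.0956). Among the 5121 probes left out as dim, 934 were well above background in all 4 positive animals and in 0 Holstein controls, and 0 the other way round.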
